A study of Homo sapiens with 6 samples.

Results

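The EGF receptor family and its ligands were examined in HK-2 cells, an immortalized line of human renal proximal tubule epithelium, as 10 genes picked by symbol: the receptors EGFR, ERBB2 and ERBB3, the EGFR ligands HBEGF, AREG, EREG, TGFA, BTC and EGF, and the neuregulin gene NRG1. All 10 were among the 31831 genes of the count table and all 10 passed the low-count filter, which kept 17142 genes. Cells that carried a control vector (HG-NC, 3 libraries; a plasmid by the labels and a lentivirus by the methods) were compared with cells that carried a lentivirus for hnRNP-F, an RNA-binding splicing factor (HG-OE, 3 libraries), and by the methods, though not by the labels, cells of both groups were kept in medium with 30 mM glucose for 72 h. The study calls the libraries biological replicates and the labels name no separate cultures, so the p-values measure the spread between these libraries, which may be technical. The question was which of these genes differed when hnRNP-F was raised in high glucose.

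The ErbB receptors are cell surface tyrosine kinases that pair with each other when a ligand binds. EGFR binds EGF, TGFA, AREG, EREG, HBEGF and BTC, ERBB3 has a weak kinase and binds neuregulins, and ERBB2 has no known ligand of its own and serves as the preferred partner. The ligands are made as membrane-anchored precursors and are released by proteases of the ADAM family, and in the renal tubule the system is known for its part in repair after injury and in fibrosis.

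In HG-OE, 7 of the 7 ligand genes and EGFR were lower than in HG-NC, ERBB3 was higher, and no difference was detected for ERBB2. EREG and NRG1 fell the most, to 36.2% and 40.6% of their HG-NC level in CPM (counts scaled to library size, normalized by TMM), and AREG fell to 51.4%. Of the 10 genes, 9 had an adjusted p under 0.05 in edgeR's quasi-likelihood test, 1 higher and 8 lower, whereas 51.8% of all genes tested passed this threshold, 25.9% higher and 25.9% lower. Averaged over the libraries, all 10 genes reached 100 counts, and among genes that did so 61.9% passed. With the study's threshold of a 2-fold change added, 3 of the 10 genes were called, against 5.82% of all genes tested: ERBB3 was higher (3.69% of all genes tested) and EREG and NRG1 were lower (2.13% of all genes tested). The libraries of the 2 groups did not overlap for 9 of the 10 genes, and for 59.0% of all genes tested. The 10 genes had a median log2 fold change of -0.38, against 0.011 for all genes tested. EGF missed an adjusted p under 0.05 in 10 of 14 alternative fits, and BTC missed it in 3. EREG, AREG, BTC and EGF lie on chromosome 4, where their neighbours within 10 Mb had median log2 fold changes of -0.31 to -0.27.

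HNRNPF, the overexpressed gene, stood at 304, 319 and 311 CPM in the control libraries (replicates 1 to 3, in that order here and in what follows) and at 430, 452 and 423 CPM in HG-OE. The libraries held 25507595 to 29444841 counted read pairs. HG-OE replicate 3 stood apart from the other libraries. It lay at 34.3 on the second principal component, which held 16.5% of the variance, and the other libraries lay between -19.6 and 3.35. Among lists of marker genes, 12 liver genes summed to 726 CPM in that library and to 266 to 463 CPM in the other libraries, and 11 of them, without SERPINA1, which was abundant in every library and was set aside after its values were seen, summed to 331 CPM there and to 1.44 to 11.5 CPM elsewhere. Of 10 squamous genes 9 had a count in that library, with 73.0 CPM in sum against 6.72 to 9.01 CPM elsewhere, and IVL was not listed. Summed CPM of renal epithelium markers was 1471 to 1562 over the HG-NC libraries and 1663 to 2219 over HG-OE. KRT8, KRT18 and PAX8 were abundant in every library, but genes of this list went both ways. Of its 11 tested genes, 3 were higher and 2 lower at an edgeR adjusted p under 0.05 (25.9% each way over all genes tested). From HG-NC to HG-OE, mean CPM rose from 296 to 755 for KRT8, 206 to 349 for KRT18 and 4.26 to 8.64 for MME. It fell from 637 to 447 for PAX8 and from 232 to 159 for KRT19. For KRT8, KRT18 and KRT19, HG-OE replicate 3 was well above the other HG-OE libraries. The means of HG-OE replicates 1 and 2 were 641, 280 and 143 CPM for these genes. The proximal tubule genes LRP2, AQP1 and CUBN were at most at 0.580 CPM. SLC5A2 lay between 2.87 and 4.54 CPM over all libraries. Mesenchymal markers summed to 31.9 to 41.8 CPM, leukocyte markers to 2.06 to 3.61 CPM and endothelial markers to 0.433 to 1.41 CPM over all libraries. Since HG-OE replicate 3 held these other markers, the fold changes of the 10 genes and the counts of each list are also given without it, and their part in the results was not tested. In bulk RNA, fewer cells of a kind and less RNA per cell cannot be told apart.

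**Figure D1:**
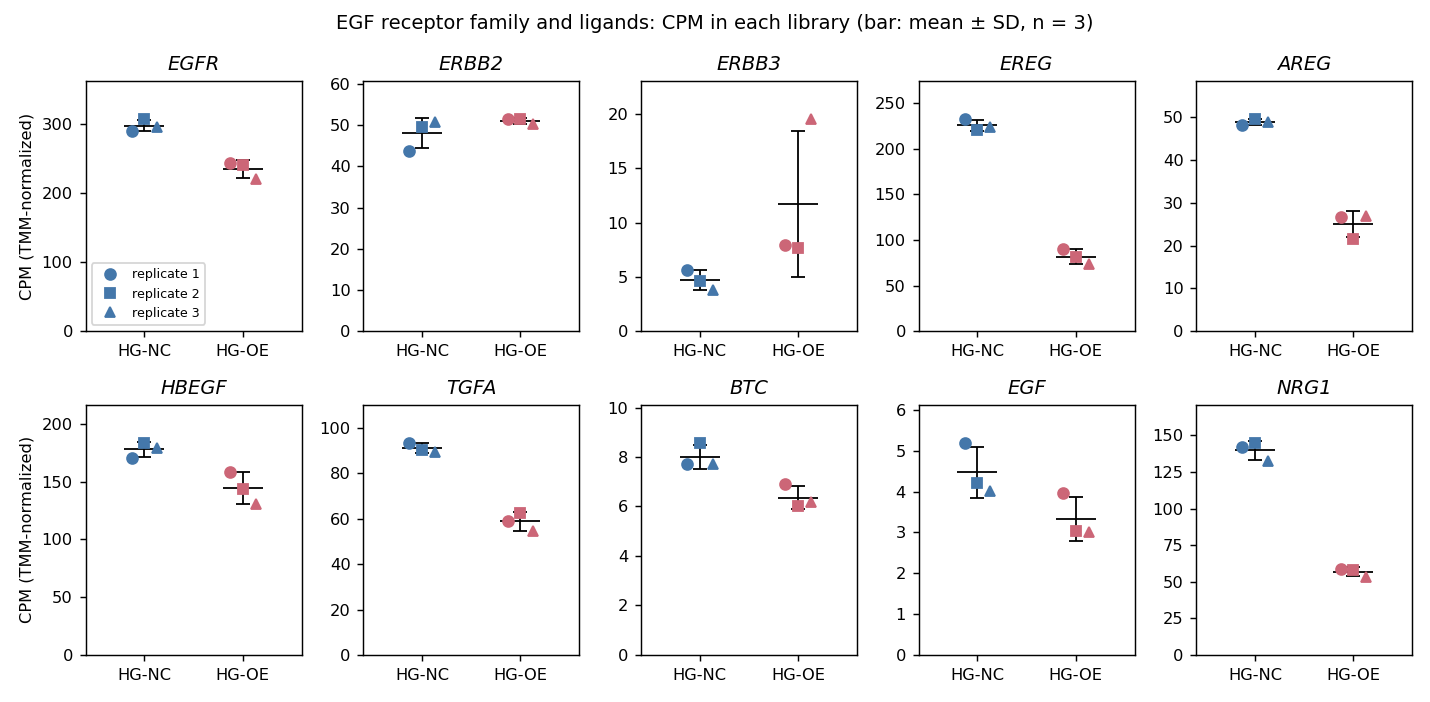
CPM of the 10 genes in each library of HG-NC (blue) and HG-OE (red), with 1 panel per gene, each axis starting at 0, the replicate shown by the marker shape and the bar giving mean ± SD of 3 libraries. The groups are apart in every panel except that of ERBB2, and HG-OE replicate 3 lies well above the other HG-OE libraries for ERBB3, at 19.5 CPM.

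EREG encodes epiregulin, a ligand of EGFR that also acts through ERBB4. The HG-NC libraries held 5904, 5960 and 6263 of its counts, and the HG-OE libraries held 2607, 2356 and 2162. These gave 232, 220.2 and 224 CPM in HG-NC and 89.8, 80.9 and 73.8 CPM in HG-OE, so that every HG-OE library lay far below every HG-NC library. The group means were 225 ± 6.13 and 81.5 ± 8.03 CPM (SD, n = 3), and the log2 fold change was -1.47 (standard error, SE, 0.0588 and edgeR adjusted p = 6.16e-10). Without HG-OE replicate 3 it was -1.40. EREG (ENSG00000124882.4) lies on chromosome 4 of GRCh38 from 74365145 to 74388749.

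AREG encodes amphiregulin, an EGFR ligand induced in injured tubules, and lies in the same region of chromosome 4, from 74445136 to 74455005. It had 48.1, 49.5 and 48.8 CPM in HG-NC and 26.7, 21.5 and 26.9 CPM in HG-OE. The HG-NC libraries lay within a narrow range, and HG-OE replicate 2 was the lowest library. The means were 48.8 ± 0.723 and 25.0 ± 3.07 CPM, with a log2 fold change of -0.96 (SE 0.0744, edgeR adjusted p = 2.04e-07), just short of 2-fold. Without HG-OE replicate 3 the fall of AREG was -1.02, past 2-fold. The 95% interval of the change ran from -1.12 to -0.80 for AREG and from -1.59 to -1.34 for EREG, and these intervals did not overlap. The log2 ratio of EREG to AREG CPM was 2.15 to 2.27 in the HG-NC libraries and 1.45 to 1.91 in the HG-OE libraries.

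BTC, betacellulin, a ligand of EGFR and ERBB4, lies in the same region (chromosome 4, 74744759 to 74794523) and was much less abundant. It had 7.71, 8.57 and 7.73 CPM in HG-NC and 6.89, 6.01 and 6.18 CPM in HG-OE, so that the groups were apart by a small gap. The log2 fold change was -0.33 (SE 0.111, edgeR adjusted p = 0.0226), and -0.31 without HG-OE replicate 3. Without HG-NC replicate 2 or HG-OE replicate 2 the adjusted p was 0.0934 or 0.0789. The neighbourhood of these ligands lay below 0 as a whole. The 60 genes with at least 100 counts within 10 Mb of EREG or AREG had a median log2 fold change of -0.31, and the 63 genes around BTC one of -0.31. With this median subtracted, the difference was -1.16 for EREG, -0.65 for AREG and -0.02 for BTC. Whether the shift of the region plays a part in the falls was not tested.

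EGF itself, the founding ligand, lies farther along chromosome 4 (109912883 to 110013766) and was the scarcest ligand among the 10 genes. The HG-NC libraries held 132, 114 and 112 of its counts and the HG-OE libraries 115, 88 and 88, or 5.19, 4.21 and 4.01 CPM against 3.96, 3.02 and 3.00 CPM. The lowest HG-NC library and the highest HG-OE library were close together. The log2 fold change was -0.42 (SE 0.166, edgeR adjusted p = 0.0467), at the edge of the threshold, and without HG-OE replicate 3 it was -0.35 with an adjusted p of 0.0692. EGF also missed the threshold without HG-NC replicate 1, 2 or 3 or HG-OE replicate 2, with adjusted p of 0.0541 to 0.199. The 53 neighbouring genes had a median of -0.27, and with that subtracted the difference was -0.15.

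TGFA encodes transforming growth factor alpha and lies on chromosome 2 from 70447284 to 70554193. It had 93.5, 90.3 and 89.3 CPM in HG-NC and 59.2, 62.7 and 54.7 CPM in HG-OE, with a wide gap between the groups. The means were 91.0 ± 2.19 and 58.8 ± 4.02 CPM, a log2 fold change of -0.63 (SE 0.0520, edgeR adjusted p = 3.70e-07), and -0.58 without HG-OE replicate 3. Its 104 neighbours had a median of -0.27, and with that subtracted the difference was -0.36.

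HBEGF encodes heparin-binding EGF-like growth factor, the most abundant ligand per length in both groups, and lies on chromosome 5 from 140332843 to 140346603. It had 171, 183 and 179 CPM in HG-NC and 158, 144 and 130 CPM in HG-OE. All HG-OE libraries were lower, and HG-OE replicate 3 was the lowest of them. The log2 fold change was -0.30 (SE 0.0590, edgeR adjusted p = 6.90e-04), and -0.24 without that library. Its 117 neighbours had a median of 0.30, and with that subtracted the difference was -0.60. The log2 ratio of EREG to HBEGF CPM was 0.26 to 0.45 in the HG-NC libraries and -0.83 to -0.81 in the HG-OE libraries.

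NRG1 encodes neuregulin 1, the ligand of ERBB3 and ERBB4, in many isoforms that a count per gene does not separate. It lies on chromosome 8 from 31639222 to 32855666. The HG-NC libraries held 3616, 3922 and 3700 of its counts and the HG-OE libraries 1709, 1697 and 1559, or 142, 145 and 132 CPM against 58.9, 58.3 and 53.2 CPM. The libraries within each group were close together and the groups were far apart. The means were 139.8 ± 6.59 and 56.8 ± 3.11 CPM, with a log2 fold change of -1.30 (SE 0.0511, edgeR adjusted p = 5.80e-10) and -1.25 without HG-OE replicate 3. In contrast to EREG, the 96 neighbours of NRG1 had a median close to 0, at 0.0090, which left -1.31.

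Among the receptors, EGFR had the highest level. EGFR lies on chromosome 7 from 55019017 to 55211628 and had 290.1, 307 and 296 CPM in HG-NC and 244, 240.4 and 221 CPM in HG-OE, with HG-OE replicate 3 the lowest library. Its log2 fold change was -0.34 (SE 0.0443, edgeR adjusted p = 2.21e-05), and -0.30 without that library. The 27 neighbours of EGFR had a median of 0.030, which left -0.37.

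ERBB2 (chromosome 17, 39687914 to 39730426) had 43.8, 49.5 and 50.8 CPM in HG-NC and 51.4, 51.4 and 50.3 CPM in HG-OE. The groups overlapped, and HG-NC replicate 1 was the lowest library. The log2 fold change was 0.086 with a 95% interval from -0.039 to 0.21 (adjusted p = 0.237, edgeR), and it was 0.096 without HG-OE replicate 3. Its 239 neighbours had a median of -0.26, and with that subtracted the difference was 0.34.

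ERBB3 (chromosome 12, 56076799 to 56103505), the receptor of neuregulins, was scarce in HG-NC and was the gene that rose. It had 143, 126 and 107 counts in HG-NC against 230, 224 and 572 in HG-OE, or 5.62, 4.66 and 3.83 CPM against 7.93, 7.69 and 19.5 CPM. Every HG-OE library was above every HG-NC library, but HG-OE replicate 3 was far above the others. The log2 fold change was 1.32 (SE 0.298, edgeR adjusted p = 0.00207). Without HG-OE replicate 3 the rise of ERBB3 was 0.74, under 2-fold, with an adjusted p of 6.87e-06. That library also held the highest CPM of 11 of the 12 liver genes, all but SERPINA1, and of 9 squamous genes, and their part in the 19.5 CPM of ERBB3 was not tested. The 202 neighbours of ERBB3 had a median of 0.062, which left 1.26. The log2 ratio of NRG1 to ERBB3 CPM was 4.66 to 5.11 in the HG-NC libraries and 1.45 to 2.92 in the HG-OE libraries.

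Tested singly, each of these genes except ERBB2 had p = 0.1 in the exact permutation test (two-sided), the smallest that 3 libraries against 3 allow, and ERBB2 gave 0.2. Without HG-OE replicate 3, 8 of the 10 genes passed, 1 higher and 7 lower, against 53.9% of the genes tested in that setting, and 3 were called 2-fold, namely EREG, NRG1 and AREG, against 6.24% of the genes tested there.

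**Figure D2:**
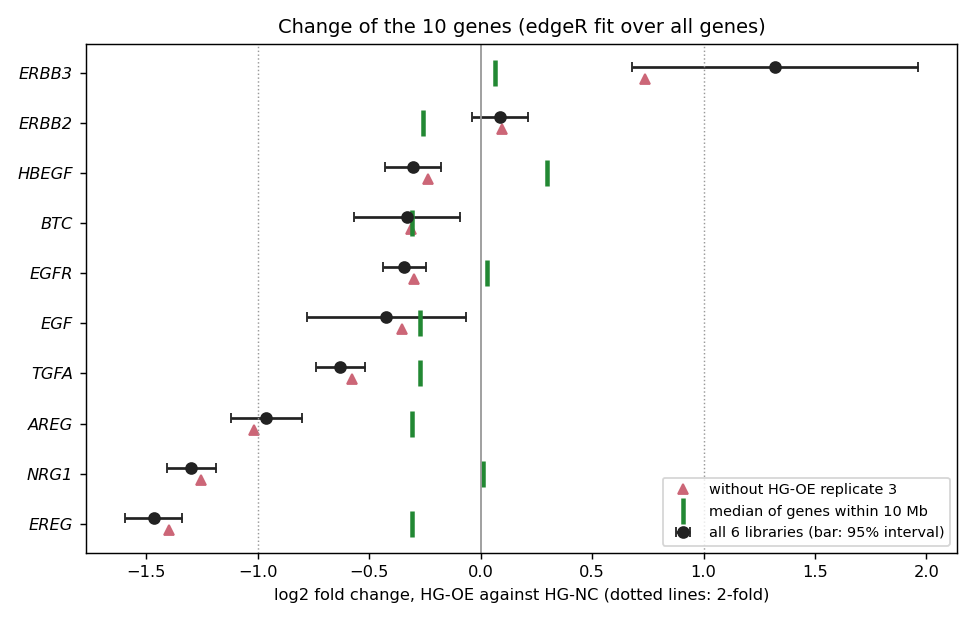
Log2 fold change of each gene, HG-OE against HG-NC, with its 95% interval (black), the value without HG-OE replicate 3 (red triangles) and the median of the genes within 10 Mb (green). EREG, NRG1 and AREG lie farthest to the left, ERBB3 lies at 1.32 with all libraries and at 0.74 without HG-OE replicate 3, and the point of BTC falls on the median of its neighbours.

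Between genes, levels were compared per length, as FPKM values computed by the authors. The gene lengths they used are not given, and the order between genes depends on them. In HG-NC, NRG1 had 139.8 CPM but 5.85 FPKM, and AREG had 48.8 CPM but 26.6 FPKM. In HG-NC the order of the means was HBEGF at 53.2 ± 2.05, EREG at 35.3 ± 0.917, AREG at 26.6 ± 0.420, EGFR at 21.3 ± 0.610, TGFA at 16.6 ± 0.350, NRG1 at 5.85 ± 0.255, ERBB2 at 4.17 ± 0.335, BTC at 2.70 ± 0.165, EGF at 0.523 ± 0.0757 and ERBB3 at 0.360 ± 0.0700 FPKM (SD, n = 3). No neighbours in this order overlapped in their ranges. In HG-OE the means of HBEGF and EGFR came first, at 42.6 ± 4.26 and 16.6 ± 0.905 FPKM. AREG at 13.5 ± 1.72 and EREG at 12.6 ± 1.29 FPKM followed, and their ranges overlapped. TGFA had 10.6 ± 0.694, ERBB2 4.37 ± 0.0603, NRG1 2.35 ± 0.132 and BTC 2.12 ± 0.168 FPKM, and the ranges of NRG1 and BTC overlapped. ERBB3 at 0.887 ± 0.514 was above EGF at 0.387 ± 0.0635 FPKM. EREG thus went from the second place to the fourth, and NRG1 from above ERBB2 to below it.

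Added up, the 7 ligands of EGFR (with EPGN, epigen) had 134.9 ± 1.29 FPKM in HG-NC and 81.9 ± 6.37 FPKM in HG-OE, which was 39.3% lower. EREG made up 42.8% of the difference in summed FPKM, AREG 24.7%, HBEGF 19.9% and TGFA 11.3%. The share of HBEGF in the sum was 38.1% to 40.3% in the HG-NC libraries and 50.2% to 53.0% in the HG-OE libraries. The share of EREG was 25.3% to 27.2% and 14.9% to 15.7%, and the shares of TGFA overlapped between the groups. The 4 receptors summed to 25.8 ± 0.838 and 21.9 ± 0.447 FPKM, of which EGFR held 81.8% to 83.0% in HG-NC and 72.6% to 77.5% in HG-OE. The share of ERBB3 was 1.11% to 1.72% in HG-NC and 2.65% to 6.89% in HG-OE. These sums and shares are descriptions of RNA, depend on the same gene lengths and were not tested.

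**Figure D3:**
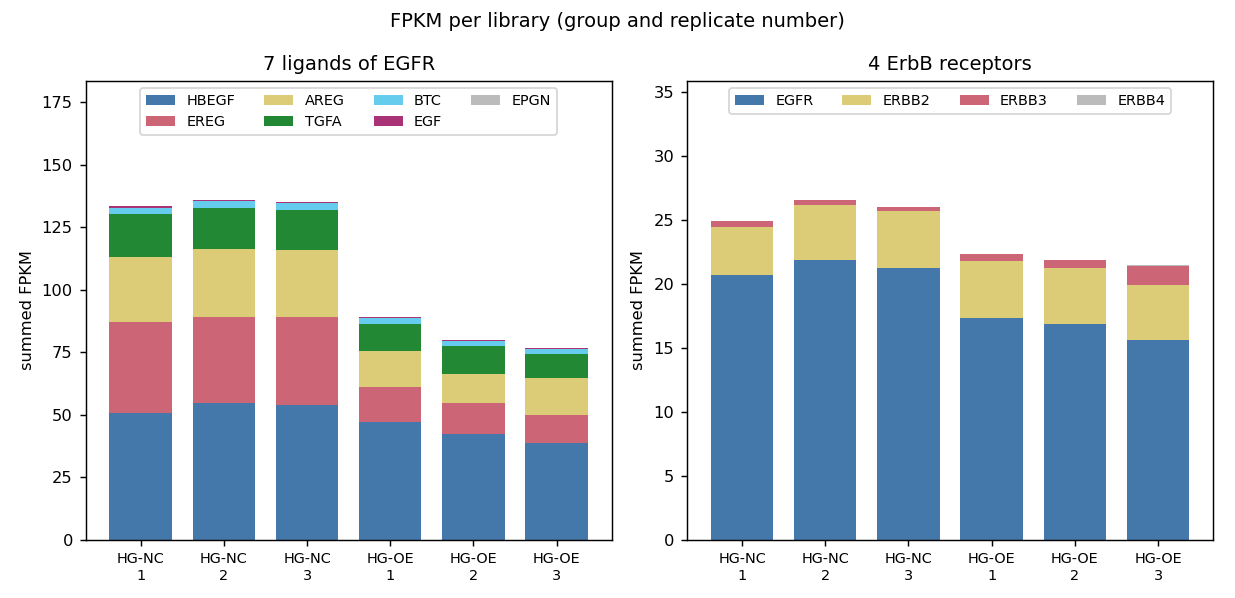
Summed FPKM per library of the 7 EGFR ligands (left) and the 4 ErbB receptors (right), both axes starting at 0, with each colour 1 gene. The ligand bars are shorter in all 3 HG-OE libraries, mostly in the EREG and AREG segments, and the ERBB3 segment is widest in HG-OE replicate 3.

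Of the family genes outside the 10, none passed the low-count filter. ERBB4, the other neuregulin receptor, had 4, 9 and 6 counts in HG-NC and 4, 3 and 41 in HG-OE, so that most of its HG-OE counts lay in replicate 3. NRG3 had 0, 0 and 1 counts in HG-NC and 11, 7 and 7 in HG-OE, and with no low-count filter its adjusted p was 0.00204 (edgeR). EPGN had 1 to 8 counts per library, NRG2 at most 6 and NRG4 at most 4. Where none was counted, up to 3 counts per library remain possible.

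For 8 of the 10 genes, all except ERBB3 and NRG1, RefSeq promoters (GRCh38.p14, 250 bases before to 50 bases after the start) were at hand. They were searched for 3 motifs, those of AP-1 (TGANTCA), CRE (TGACGTCA) and NF-kB, which bind factors that act after growth factor and cytokine signals. The AP-1 and CRE motifs read the same on both strands. NF-kB was sought in the direction of the gene only, as GGGRNNYYCC or GGRRYYNNCCC. There R is A or G, Y is C or T, and N is any base. The CRE motif was found in 1 of the 8, that of AREG, and in 1.98% of all promoters. The AP-1 motif was found in those of EGF and ERBB2 and in 7.76% of all promoters, and the NF-kB motif in that of TGFA and in 11.3% of all promoters. No match was found in the windows of EREG, HBEGF, BTC and EGFR, where NF-kB sites on the opposite strand were not sought. The matches of AREG, TGFA and EGF are shown because these are ligand genes, with 30 bases each in the direction of the gene and the motif in capitals. The first lies at chr4:74445060-74445089 on the plus strand, with the motif starting 65 bases before the RefSeq start site. The second lies at chr2:70554026-70554055 on the minus strand, with the motif 219 bases before the RefSeq start site. The window of TGFA falls inside the gene span given above, which starts upstream of it. The third lies at chr4:109912855-109912884 on the plus strand, with the motif 17 bases before the RefSeq start site.
AREG: cggccgggcctTGACGTCAtgggctgcggc
TGFA: tgccctcaggGGGGCACCCCcatcggggcg
EGF: aaaagcaaagcTGAGTCAttccacttttca
A match is a description of the sequence, and binding was not measured in these libraries.

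Of 10 genes for the release of the ligands, 9 were tested, of which 2 were higher and 3 lower at an adjusted p under 0.05, with a median log2 fold change of 0.063. Over all genes tested 51.8% passed, 25.9% in each direction. ADAM17, the main protease for TGFA, AREG, EREG and HBEGF, had 94.6, 84.8 and 84.8 CPM in HG-NC and 64.2, 62.6 and 60.0 CPM in HG-OE, with a log2 fold change of -0.50 (SE 0.0522, edgeR adjusted p = 3.26e-06), and of -0.47 without HG-OE replicate 3. Its 46 neighbours on chromosome 2 had a median of -0.28, and with that subtracted the difference was -0.22. ADAM10, which releases EGF and BTC, had a log2 fold change of -0.13. RHBDF1, an iRhom needed for ADAM17 to mature, and FRMD8, which holds iRhoms at the cell surface, rose by 0.36 and 0.29. RHBDL2, a rhomboid protease, fell by 1.70 on the log2 scale, with 25, 31 and 41 counts in HG-NC and 7, 9 and 16 in HG-OE, and had -2.11 without HG-OE replicate 3. TIMP3, an inhibitor of ADAM17 named here after its values were seen, did not pass the filter, with 99 counts in HG-OE replicate 3 and at most 1 in any other library. With HG-OE replicate 3 left out, 3 genes of the list were higher and 4 lower, and with HG-NC replicate 3 left out, 1 was higher and 2 were lower.

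Among 14 genes that restrain or degrade the receptors, 13 were tested, 1 was higher and 7 were lower (25.9% each way over all genes tested), with a median of -0.24. RNF41, a ubiquitin ligase that targets ERBB3, was the 1 gene called 2-fold. It also lies on chromosome 12, from 56202179 to 56221933, and had 168, 178 and 177 CPM in HG-NC and 88.3, 80.2 and 73.0 CPM in HG-OE, with a log2 fold change of -1.12 (SE 0.0583, edgeR adjusted p = 6.31e-09). The fall was -1.05 without HG-OE replicate 3. Whether RNF41 plays a part in the level of ERBB3 RNA was not tested. SOCS4, of the suppressor of cytokine signalling family, fell by 0.67 and LRIG3, of the LRIG family, by 0.48. ERRFI1, which binds and blocks the EGFR kinase and is named here after its values were seen, fell by 0.47. PTPRJ, a receptor tyrosine phosphatase, rose by 0.50. The counts of this list without HG-OE replicate 3 were again 1 higher and 7 lower.

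Of 37 adaptors, kinases and STAT genes next to the receptors, 36 were tested, 9 were higher and 13 lower (25.9% each way over all genes tested), with a median of -0.045. The counts were 9 and 13 again without HG-OE replicate 3. SHC3, an adaptor best known from neurons, was the 1 called gene and had 2.95, 2.77 and 3.15 CPM in HG-NC and 6.38, 7.28 and 6.93 CPM in HG-OE, with a log2 fold change of 1.21 (SE 0.132, edgeR adjusted p = 4.48e-06), and of 1.21 without HG-OE replicate 3 too. Next to it, PLCG1, a phospholipase recruited to EGFR, rose by 0.34. STAT3, a transcription factor activated by EGFR and by cytokine receptors, fell by 0.67 and the adaptor GAB2 by 0.62.

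Of 18 genes taken as readout of ERK signalling, all were tested, and 4 were higher and 8 lower (25.9% each way over all genes tested), with a median of -0.10. DUSP5 and PHLDA1, both induced by ERK, fell by 0.79 and 0.66. EGR1, an immediate early transcription factor, had 2.60, 3.10 and 3.15 CPM in HG-NC and 8.82, 5.70 and 11.1 CPM in HG-OE, with a log2 fold change of 1.53 (SE 0.206, edgeR adjusted p = 3.18e-05), and of 1.30 without HG-OE replicate 3. CCND1, cyclin D, rose by 0.45 and DUSP6, an ERK phosphatase, by 0.31. DUSP4 was called with a log2 fold change of 2.95, but 305 of its counts came from HG-OE replicate 3 against 9 and 18 in HG-OE replicates 1 and 2, and its log2 fold change with replicate 3 left out was -0.063. Without HG-OE replicate 3, 4 genes of this list were higher and 9 lower.

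**Figure D4:**
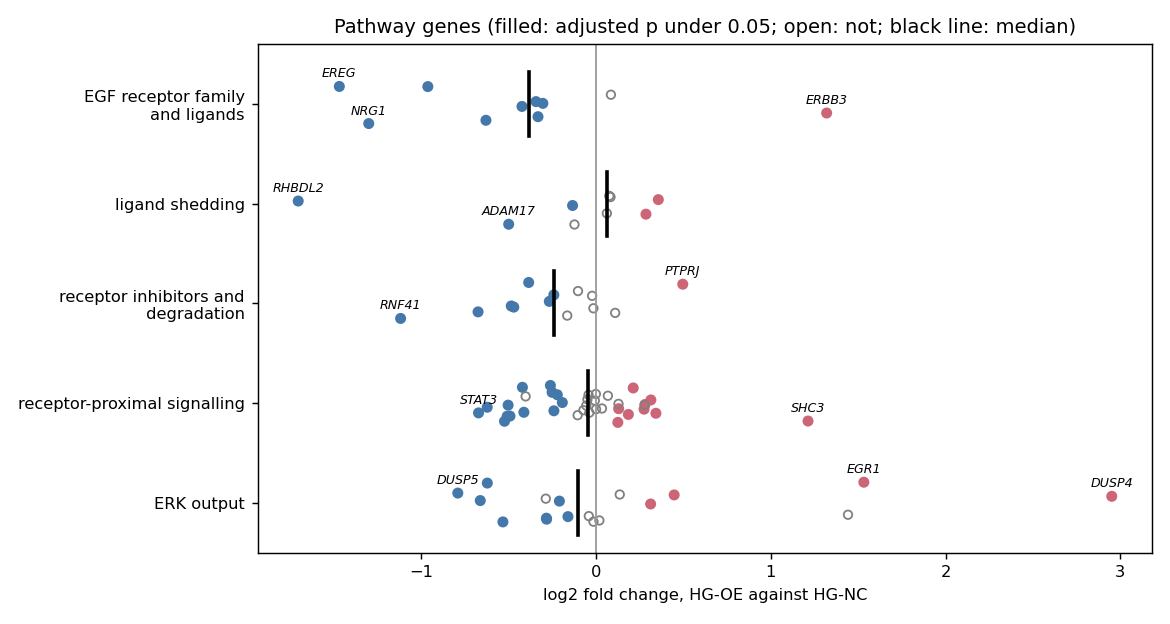
Log2 fold change, HG-OE against HG-NC, of every tested gene of the 5 lists, 1 point per gene with random vertical spread, filled red or blue where the adjusted p was under 0.05 and open where it was not, with the median as a black line. The medians lie at -0.38 for the family and its ligands and between -0.24 and 0.063 for the other lists, in which points lie on both sides of 0.

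The genes with the pattern most like that of a member over the 6 libraries were sought among 10199 or 10200 others with a mean of at least 10 CPM, by the root mean square difference of centred log2 CPM. For EREG they were SERPINB7 (0.047), FSD1L (0.055) and ADPRM (0.085), with log2 fold changes of -1.49, -1.41 and -1.37. Those nearest to EGFR were ZNF462 (0.015), RCOR3 (0.015) and PBXIP1 (0.018). For ERBB3 the nearest genes were farther away, CEMIP2 at 0.16, SKP2 at 0.21 and MISP at 0.28, with log2 fold changes of 1.31, 1.19 and 0.87. With only 2 groups, the likeness rests mainly on the size of the group difference and, for ERBB3, on HG-OE replicate 3.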

How the data were processed

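RNA-seq of poly(A) RNA was used from 3 HG-NC and 3 HG-OE libraries, grouped by their titles. According to the methods and the submitters' processing notes, the authors counted uniquely mapped reads per gene after trimming and HISAT2 alignment to GRCh38. The counts deposited are whole numbers without normalization, and the deposited FPKM values are rounded to 2 decimals. The counter, annotation release and strand setting are not given in the sources used here. ComBat_seq correction is named in the methods, without the batches, and whether it entered these counts is not stated. Totals per library were 25507595 to 29444841.

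Counts were tested with edgeR 4.0.16 in R 4.3.3 (TMM, default low-count filter, quasi-likelihood test, Benjamini-Hochberg adjustment over 17142 genes). Standard errors are the size of the log2 fold change divided by the square root of F. Calls needed a change of 2-fold or more beside an adjusted p under 0.05. Positions came from GENCODE release 44 and matched 17110 of the tested genes. The alternatives were DESeq2 1.42.0 (Wald test and size factors), other count filters, a block for the replicate number, omission of each library, limma 3.58.1 on log2(FPKM + 1) and log2(FPKM + 0.1), and the neighbours' median subtracted. The edgeR, DESeq2 and limma fits were run on simulated counts with 200 genes changed by known folds. In the data 8887 genes passed, a setting that the simulation did not cover. The members and lists were chosen with earlier results of these data known. Named genes are the 10 members, HNRNPF, and from each list those called 2-fold plus the 2 largest rises and falls among the others past the threshold with a mean of at least 100 counts, and the 3 genes most like EGFR, ERBB3 and EREG. A gene that this rule names is not reported here. Marker genes are given as list sums, and those named singly were chosen after their values were seen. Counting limits cover counting error only.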

Additional observations from a re-analysis of the deposited data

How the results depend on the processing

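EREG, NRG1, AREG, TGFA, HBEGF and EGFR kept their direction and an adjusted p under 0.05 in all 14 alternative fits, with log2 fold changes of -1.54 to -1.40, -1.33 to -1.03, -1.02 to -0.86, -0.68 to -0.58, -0.38 to -0.24 and -0.37 to -0.30. ERBB2 stayed above the threshold in all 14, at 0.027 to 0.13. ERBB3 ran from 0.44 to 1.55 and missed an adjusted p under 0.05 on log2(FPKM + 1), where it was 0.44 with and without the filter, a scale that understates low genes. It passed but was under 2-fold on log2(FPKM + 0.1), at 0.99, and without HG-OE replicate 3, at 0.74. BTC missed the adjusted p in 3 fits (-0.34 to -0.28), the DESeq2 Wald test and without HG-NC replicate 2 or HG-OE replicate 2. EGF missed it in 10 fits, with -0.49 to -0.14, and this fall is thus at the limit of these counts. With the neighbours' median subtracted, EGF had -0.15. The cause of these differences was not tested.

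With each library left out, 7 to 9 of the 10 genes passed and 3 to 4 were called 2-fold. The lists had 3 to 7 passing genes for ligand shedding, 8 to 9 for receptor inhibitors, 18 to 22 for proximal signalling, 11 to 13 for ERK output and 0 for the 5 other family genes. Over all genes, 7729 to 9355 of the 17366 to 17597 tested per setting passed and 989 to 1124 were called 2-fold. The log2 ratio of summed FPKM was -0.78 to -0.68 for the ligands and -0.26 to -0.22 for the receptors.

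The count of all genes called 2-fold, 997, was 617 with at least 10 counts in every library, 1539 with no low-count filter, 144 with limma on log2(FPKM + 1) and 138 without its filter. Ligand shedding, with 5 passing genes, had 3 in each limma fit and 3 without HG-NC replicate 3. Of the 5 other family genes, 1 passed with no low-count filter and 1 with limma on log2(FPKM + 1) without a filter.

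With the replicate number as a block, 9 of the 10 genes passed and 3 were called, as without it. In that setting 8849 of all 17142 genes tested passed and 990 were called 2-fold. Same-numbered libraries did not deviate together (r = -0.027, 0.030 and -0.00099), so the numbers were not taken as a pairing.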
